A study of Mus musculus with 6 samples.

Results

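The genes described here are 9 that encode enzymes and enzyme partners of leukotriene and prostaglandin synthesis, taken by symbol from a table of 55401 Ensembl genes: Alox5, Alox5ap, Ltc4s, Lta4h, Ptgs1, Ptgs2, Hpgds, Ptges3 and Alox15. All 9 were found, each under 1 identifier. The table holds 6 RNA-seq libraries labelled as basophils from the blood of WT mice, 3 in a set named A and 3 in a set named B. The sort gate was live CD45+Lin-CD49b+ cells with FcεRIα or IgE on their surface, and the libraries were made with Smart-seq2, which amplifies full-length cDNA from small inputs. In the treatment protocol MC903, a vitamin D analogue, was put on both ears daily over days 0 to 6 at 2 nmol in 10 µL of ethanol, and controls were given the ethanol only. The labels give neither the age nor the strain background of the mice, nor which set received MC903, so every difference is stated as B relative to A. Blood is the labelled tissue, whereas the design text of the series names ear skin.

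Leukotrienes and prostaglandins are lipid mediators made from arachidonic acid, which phospholipases release from membranes. In the leukotriene route, 5-lipoxygenase (Alox5), helped by the membrane protein FLAP (Alox5ap), forms the unstable leukotriene A4. Lta4h converts it to the neutrophil attractant leukotriene B4, and Ltc4s joins it to glutathione to give leukotriene C4, the parent of the cysteinyl leukotrienes that basophils, mast cells and eosinophils are known to release. In the prostaglandin route the cyclooxygenases COX-1 (Ptgs1) and COX-2 (Ptgs2) make prostaglandin H2, from which Hpgds forms prostaglandin D2 and prostaglandin E synthases, among them the cytosolic Ptges3, form prostaglandin E2.

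Total counts were 46137963 to 55116567 in set A and 49742321 to 63956911 in set B, and a floor of 3 counts stood at 0.0469 to 0.0650 CPM, the count as a share of its library's total on a fixed scale. The basophil label was borne out unequally by the markers. Fcer1a, the IgE-binding receptor chain of the gate, had 4, 0 and 0 counts across set A and 10736, 5584 and 2681 in B. The summed level of 12 basophil markers was 40.2 to 388 CPM in A and 1617 to 3810 CPM in B. Of the 12, 6 were higher in B without overlap, 0 were lower without overlap, and none was at 0 in every library. Among all genes tested, 10.2% were higher and 3.91% lower in B without overlap. Gata2 was highest in A replicate 3 (116 CPM), and Il3ra (42.9 CPM) and Ccr3 (12.7 CPM) were highest in A replicate 2. Hdc supplied 38.0 of the 40.2 CPM in A replicate 1 and 267 of the 388 CPM in A replicate 3. Markers of other leukocytes were abundant: 11 monocyte and macrophage markers summed to 36115 to 43080 CPM in A and 25229 to 33877 in B, and 12 neutrophil markers to 2401 to 9830 CPM in A and 12572 to 23441 in B. Transcripts typical of several leukocyte types were thus present in every library. In bulk samples fewer cells of a type and less RNA per cell cannot be told apart. The labels do not tell whether replicates are separate animals, so p-values reflect how much the replicate libraries varied, and that variation may be technical.

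**Figure D1:**
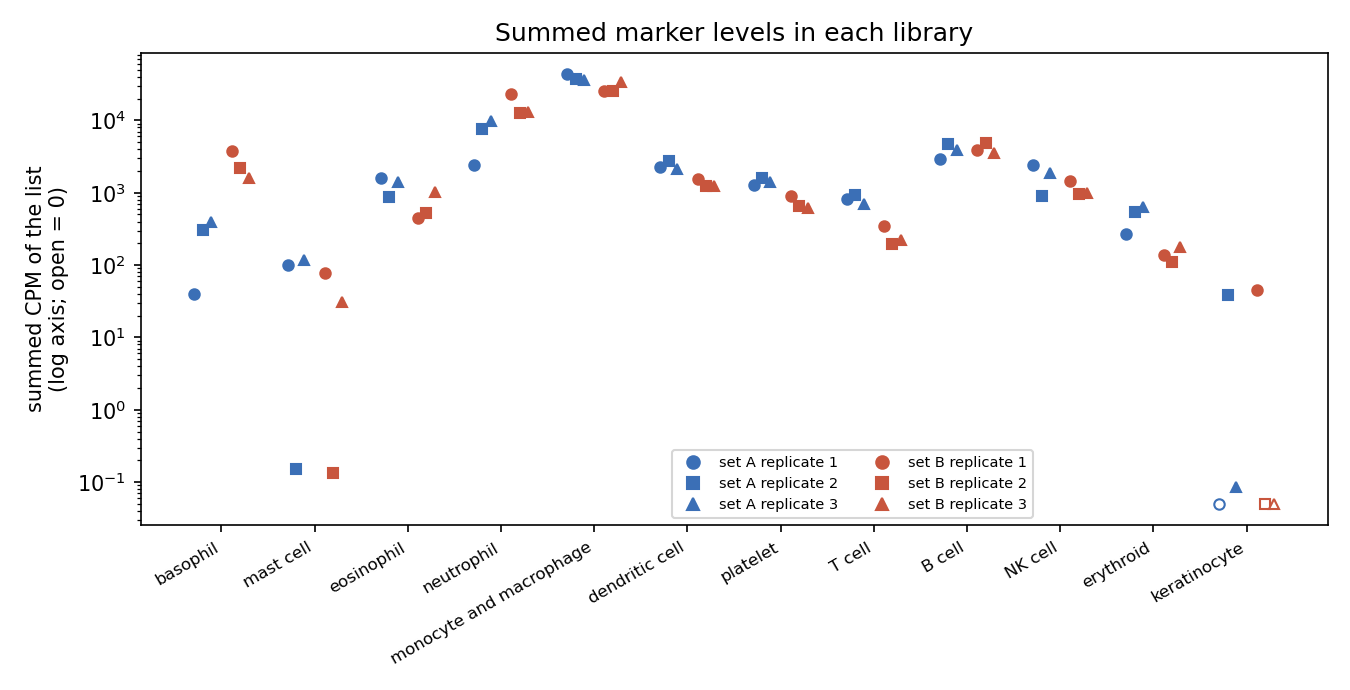
Summed CPM (log axis) of 12 marker lists in each of the 6 libraries, with symbols for the replicate and colours for the set, and open symbols for a sum of 0. The basophil and neutrophil sums lie higher in B with no overlap, and the monocyte and macrophage, dendritic cell, platelet, T cell and erythroid sums lie lower in B with no overlap.

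The 9 genes spanned a wide range of levels. Together they took 0.111% to 0.151% of all counts, and leukotriene enzymes supplied 89.9% to 98.5% of that in each library. Per kilobase of coding length (from the GENCODE M21 annotation), the mean level over the 6 libraries was 1876 CPM per kb for Alox5ap, 133 for Lta4h, 95.7 for Ptges3, 53.3 for Alox5, 10.7 for Ptgs2, 8.91 for Ptgs1, 7.60 for Ltc4s, 2.56 for Alox15 and 0.607 for Hpgds. Alox5ap came first in all 6 libraries on this scale. Lta4h and Ptges3 followed with overlapping values, Lta4h being ahead in 3 libraries and Ptges3 in the other 3, and per kilobase of exon sequence Alox5 (26.2 CPM per kb) passed Ptges3 (20.7). The places of Ptgs2, Ptgs1, Ltc4s and Alox15 rested on 1 or 2 libraries each, as described below.

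**Figure D2:**
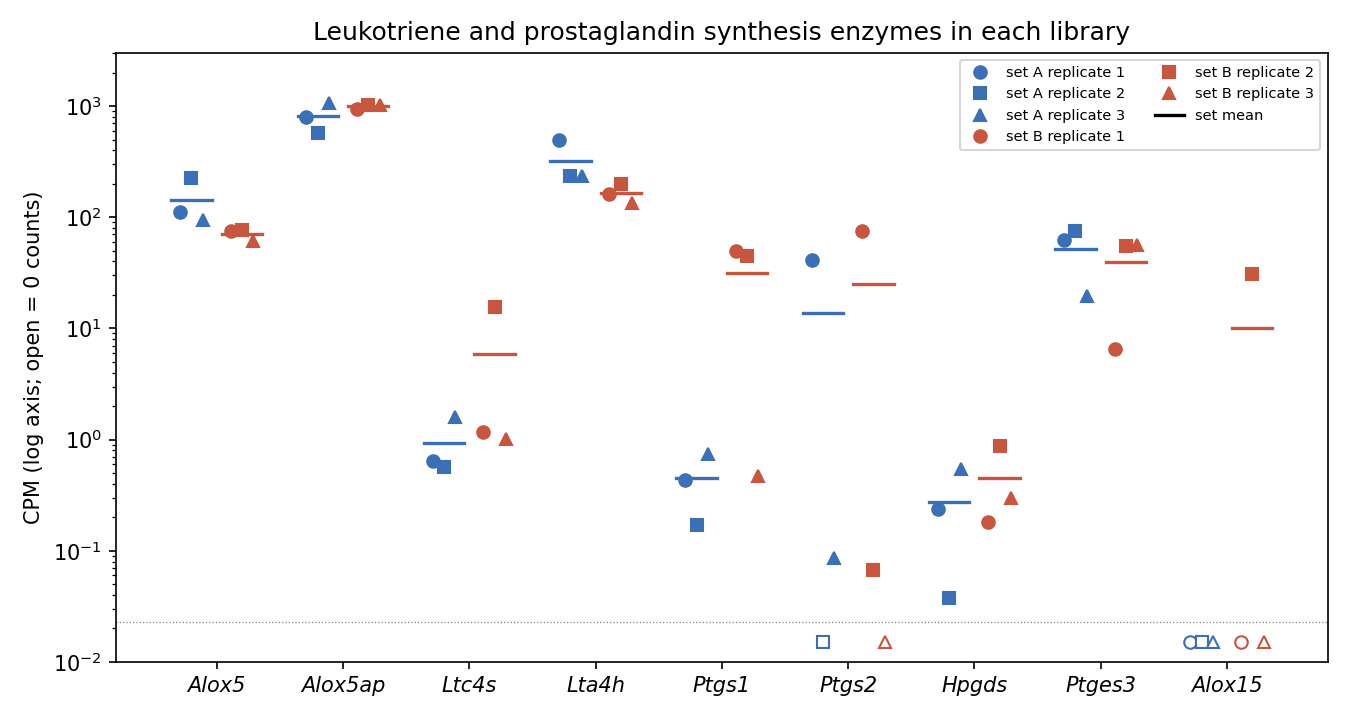
CPM (log axis) of the 9 genes in each library, with set A in blue, set B in red, 1 symbol per replicate and a line at each set's mean of 3 libraries, and open symbols below the dotted line for 0 counts. Alox5ap, Lta4h, Alox5 and Ptges3 have a signal in all 6 libraries, whereas Ptgs1, Ptgs2, Ltc4s and Alox15 stand out in 1 or 2 libraries.

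Comparing the sets addresses which of these transcripts differ between libraries of a study on sympathetic nerves and basophils. By edgeR's quasi-likelihood test with Benjamini-Hochberg adjustment over 9196 genes, 7 of the 9 passed the filter on low counts and were tested, and 0 passed an adjusted p of 0.05, against 0.0217% of all genes tested (2 genes, both higher in B). At an unadjusted p under 0.05, 2 of the 7 stood out by edgeR, Ptgs1 on the higher side in B, as did 5.05% of all genes tested, and Lta4h on the lower side, as did 1.32%. DESeq2 called Ptgs1 alone, as higher in B, and gave no adjusted p for Ltc4s, Ptgs2 and Alox15. It called 7.16% of the 8314 genes with an adjusted p from it, in either direction. By limma-voom 0 of the 7 were called, against 2.2% of 9196. The median log2 difference was 0.19 over the 7 tested genes and -0.06 over all genes tested.

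Alox5, which encodes 5-lipoxygenase, had 112, 227 and 93.6 CPM in replicates 1, 2 and 3 of A and 74.9, 77.4 and 61.6 CPM in those of B. Every A library was above every B library, and the 3 B libraries lay within 1.26-fold of each other. The means were 144 ± 72.4 CPM in A and 71.3 ± 8.50 CPM in B (SD, n = 3 each), a log2 difference of -1.12 with SE 0.64 (edgeR adjusted p = 1.00, with 0.440 to 1.00 over 15 alternative settings). The difference was -0.64 without A replicate 2. Lta4h, the leukotriene A4 hydrolase, had 491, 234 and 237 CPM across set A and 162, 198 and 134 CPM across set B. Here too the sets did not overlap, and A replicate 1 was the highest library. The means of Lta4h were 321 ± 148 CPM in A and 165 ± 31.9 CPM in B (SD, n = 3 each), and their log2 difference was -1.10 with SE 0.45 (edgeR adjusted p = 0.769, with 0.134 to 1.00 over 15 settings). It was -0.58 without A replicate 1. Thus 2 of the 7 tested enzymes were lower in B without overlap, where 3.91% of all genes tested were, and neither difference passed the adjusted threshold.

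Alox5ap encodes FLAP, which presents arachidonic acid to 5-lipoxygenase and has no catalytic part of its own in leukotriene A4 formation. It had 805, 575 and 1073 CPM across set A and 934, 1024 and 1027 CPM across set B. The sets overlapped, since A replicate 3 was the highest of all 6. The means were 818 ± 249 CPM in A and 995 ± 52.9 CPM in B (SD, n = 3 each), and the log2 difference was 0.19 (SE 0.25, adjusted p = 1.00 by edgeR), which turned to -0.01 without A replicate 2. Alox5ap did not follow Alox5: for each count of Alox5 there were 7.20, 2.53 and 11.5 counts of Alox5ap in A and 12.5, 13.2 and 16.7 in B, a ratio of raw counts with no correction for length. Lta4h stood at 4.40, 1.03 and 2.53 counts for each count of Alox5 in A and at 2.17, 2.56 and 2.18 in B. The sets overlapped on this ratio, which was uneven within A. In A replicate 2 Alox5 was at its highest (227 CPM), while Lta4h was at 234 CPM, its lowest in A. An antisense gene that overlaps exons of Alox5ap, Gm19719, had 66 counts, all of them in B replicate 3, and the use of strand in counting is not stated.

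Monocytes and neutrophils also carry Alox5, Alox5ap and Lta4h, so their markers are given beside these genes. The 11 monocyte and macrophage markers summed lower in B without overlap, and 3 of the 11 were lower in B without overlap and 1 was higher. The higher one, F13a1, had 8 counts in B replicate 2 and at most 4 in A. The neutrophil sum was higher in B, with 5 of 12 markers higher without overlap and 1, Ly6g, at 0 in every library. Ltf, among those 5, had 25 counts in B replicate 2 and at most 9 in A. Across all genes tested, 10.2% were higher and 3.91% lower without overlap. The part of these markers in the levels of Alox5 and Lta4h was not tested.

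Ltc4s, the enzyme that commits leukotriene A4 to the cysteinyl branch, was low in 5 of the 6 libraries. Its counts were 35, 30 and 73 across set A and 58, 920 and 65 across set B, or 0.635, 0.567 and 1.58 CPM across set A and 1.17, 15.6 and 1.02 CPM across set B. B replicate 2 alone stood far above the rest, while the other B libraries lay within the range of A. The means of 0.928 ± 0.567 CPM in A and 5.91 ± 8.35 CPM in B (SD, n = 3 each) therefore rested on 1 library, as did the log2 difference of 2.56 with SE 1.62 (edgeR adjusted p = 1.00), which was 0.20 without B replicate 2. The basophil markers varied in shape across B. Mcpt8, a granule protease, was at 1173, 872 and 478 CPM in B replicates 1, 2 and 3. Among the B libraries Fcer1a, Prss34, Cd200r3, Hdc, Cd63 and Gata2 were likewise highest in replicate 1, and Il3ra and Ccr3 in replicate 3. Cpa3, a carboxypeptidase of basophil and mast cell granules, was highest in B replicate 2 (88.7, 123 and 34.0 CPM), as were Itga2 and Ms4a2. The part of these markers in the level of Ltc4s was not tested.

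The promoters of Alox5 and Ltc4s are shown because these genes open and close the route to leukotriene C4 and differed in level, Alox5 being at 61.6 CPM or more in every library and Ltc4s at 1.58 CPM or less in 5. The sequences are RefSeq's on GRCm38.p6, 300 bases each, 5′ to 3′ on the gene's strand (minus for both), with 250 bases before and 50 after the annotated start. Capitals mark matches, on either strand, to any of 5 motifs searched. The first was AGATAA, which GATA-family transcription factors bind. The second, GAGGAAG, is a form of the site of the myeloid factor PU.1. The third was the GC box of Sp1, GGGCGG, and the fourth the core promoter element TATAAA. The last was the cyclic AMP response element in its short form, TGACGT. In these windows no match overlapped another.
Alox5, chr6:116461129-116461428: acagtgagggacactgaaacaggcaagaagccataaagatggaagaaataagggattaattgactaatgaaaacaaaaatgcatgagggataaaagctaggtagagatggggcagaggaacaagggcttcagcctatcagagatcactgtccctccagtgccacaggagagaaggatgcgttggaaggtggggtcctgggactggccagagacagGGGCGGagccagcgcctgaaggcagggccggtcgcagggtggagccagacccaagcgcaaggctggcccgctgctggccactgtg
Ltc4s, chr11:50238483-50238782: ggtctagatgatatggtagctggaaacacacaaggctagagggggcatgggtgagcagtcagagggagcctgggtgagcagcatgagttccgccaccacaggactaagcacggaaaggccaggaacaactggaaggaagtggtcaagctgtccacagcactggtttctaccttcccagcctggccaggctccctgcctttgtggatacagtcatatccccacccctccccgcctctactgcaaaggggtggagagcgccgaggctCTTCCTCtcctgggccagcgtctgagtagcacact

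The Alox5 window held 1 GGGCGG, at base 216 of the window, and the Ltc4s window held 1 GAGGAAG on the opposite strand, at base 266. Of all 32851 promoters in the table, 35.7% held GGGCGG and 13.6% held GAGGAAG. Alox5ap and Alox15 were not matched in the table, and the other 7 genes were. Among those 7, Alox5, Ptgs2 and Ptges3 held the GC box, Ltc4s, Ptgs1 and Hpgds held the PU.1 form, and Ptgs2 held the short cyclic AMP element. None of the 7 held AGATAA, which 11.2% of all promoters held, nor the core promoter element, which 13.6% held. A match is a description of letters, not of a bound site.

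Ptgs1 and Ptgs2, the cyclooxygenase isoenzymes, were each present in a different pair of libraries. Ptgs1, the constitutive form that platelets are known for, had 24, 9 and 34 counts across set A and 2463, 2672 and 30 in B, which is 0.435, 0.170 and 0.737 CPM across set A and 49.5, 45.2 and 0.469 CPM across set B. B replicates 1 and 2 were far above all A libraries, and B replicate 3 lay inside the range of A, so the sets overlapped. The means were 0.448 ± 0.284 CPM in A and 31.7 ± 27.2 CPM in B (SD, n = 3 each). The log2 difference was 6.03 (SE 2.48, adjusted p = 0.762 by edgeR), 6.01 (SE 1.73, adjusted p = 0.00918) by DESeq2 and 3.73 (SE 2.98, adjusted p = 0.788) by limma-voom. Over 14 alternative settings its adjusted p ran from 0.00918 to 1.00, and DESeq2 was the setting that passed.

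Platelet markers are given beside Ptgs1. Their 9 genes summed to 1260, 1621 and 1424 CPM across set A and 894, 646 and 623 CPM across set B, with 3 of the 9 lower in B without overlap, 0 higher without overlap and none at 0 in every library. Of all genes tested, 3.91% were lower in B without overlap and 10.2% higher. Tubb1, a platelet tubulin, was at 110, 152 and 139 CPM in A and at 36.4, 4.84 and 20.1 CPM in B. Gp9, another of the 9, overlapped, at 140, 174 and 79.4 CPM in A and at 175, 55.4 and 65.9 CPM in B. The part of these markers in the level of Ptgs1 was not tested.

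Ptgs2, the inducible cyclooxygenase, had 2274, 0 and 4 counts across set A and 3751, 4 and 0 in B. That is 41.3 CPM in A replicate 1, 75.4 CPM in B replicate 1, at most 0.0867 CPM in 2 of the others, and 0 in A replicate 2 and B replicate 3. Each set thus had 1 library with Ptgs2 and 2 nearly without it. The gene did not pass the filter and was not tested in the filtered fit. With no filter the log2 difference was 0.62 (SE 3.68, adjusted p = 0.997 by edgeR over 18179 genes). B replicate 1 was the one library with both cyclooxygenases above 1 CPM, and A replicates 2 and 3 and B replicate 3 had neither above 1 CPM.

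Values near 0 in some libraries were usual at this level. Of 3997 genes with a mean within 2-fold of that of Ptgs1, 7.81% had at least 1 CPM in all 6 libraries. Of 3967 genes about the mean of Ptgs2, 8.77% did. As many libraries under 1 CPM as these 2 genes had (4 or more) were less common, at 32.1% of the first group and 24.5% of the second. The spread of Ptgs2 within the sets was high, with a pooled SD of 3.34 on the log2(CPM + 1) scale. This was above the SD of 96.1% of the genes about its mean, while that of Ptgs1 (2.07) was above 28.1% of its group. By the same measure Alox5 was among the steadier genes, its SD of 0.49 being above that of 10.3% of 2289 genes of like mean, of which 56.6% had at least 1 CPM in all 6 libraries.

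The promoters of the cyclooxygenases are shown as a pair because the isoenzymes share a reaction, while only B replicate 1 had both above 1 CPM. Both are on the plus strand, with capitals as above.
Ptgs1, chr2:36230176-36230475: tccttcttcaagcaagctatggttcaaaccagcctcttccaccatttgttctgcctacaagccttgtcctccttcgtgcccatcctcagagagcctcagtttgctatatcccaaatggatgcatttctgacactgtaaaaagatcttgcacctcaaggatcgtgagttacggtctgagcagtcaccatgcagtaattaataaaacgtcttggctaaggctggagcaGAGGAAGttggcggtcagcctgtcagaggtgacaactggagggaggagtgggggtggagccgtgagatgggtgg
Ptgs2, chr1:150099781-150100080: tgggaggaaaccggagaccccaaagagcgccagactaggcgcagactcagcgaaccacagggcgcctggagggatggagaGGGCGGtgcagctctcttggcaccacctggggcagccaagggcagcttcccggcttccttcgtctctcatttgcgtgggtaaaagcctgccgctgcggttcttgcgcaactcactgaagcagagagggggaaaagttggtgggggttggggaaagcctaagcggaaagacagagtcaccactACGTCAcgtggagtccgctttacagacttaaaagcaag

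The window of Ptgs1 held 1 GAGGAAG, at base 227. That of Ptgs2 held 1 GGGCGG, at base 81, and 1 TGACGT on the opposite strand, at base 263, a motif found in 7.51% of all promoters of the table. The share of G and C was 50.7% in the Ptgs1 window and 59.3% in that of Ptgs2.

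Hpgds, the haematopoietic prostaglandin D synthase, an enzyme best known from mast cells, was close to the floor throughout. It had 13, 2 and 25 counts across set A and 9, 52 and 19 in B, or 0.236, 0.0378 and 0.542 CPM across set A and 0.181, 0.879 and 0.297 CPM across set B, and all 6 values were under 1 CPM. The sets overlapped (0.272 ± 0.254 CPM in A, 0.452 ± 0.374 CPM in B, SD, n = 3 each), with a log2 difference of 0.64 with SE 1.10 (edgeR adjusted p = 1.00) that turned to -0.21 without B replicate 2. Mast cell markers were sparse in the same libraries: of 7, 4 had 0 counts in every library, among them Kit, the growth factor receptor of mast cells, and the list's sum was at most 117 CPM. Where that sum was above 1 CPM, in 4 libraries, the chymase Cma1 supplied nearly all of it. Ptgds, the other prostaglandin D synthase, was at 0, 62.3 and 0 CPM across set A and at 95.4, 99.0 and 0.0938 CPM across set B. It was thus clearly present in 3 libraries, 1 of A and 2 of B, and at most at 0.0938 CPM in the rest.

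Ptges3, the cytosolic prostaglandin E synthase that also serves as the HSP90 co-chaperone p23, was at 62.5, 74.6 and 19.7 CPM across set A and at 6.57, 55.6 and 56.6 CPM across set B. A replicate 3 and B replicate 1 were the low libraries, and the sets overlapped. The means were 52.3 ± 28.9 CPM in A and 39.6 ± 28.6 CPM in B (SD, n = 3 each), a log2 difference of -0.52 with SE 1.40 (edgeR adjusted p = 1.00) that ran from -0.93 to -0.05 over 15 alternative settings. A related row, the pseudogene Ptges3-ps, was at 18.1, 25.5 and 0 CPM across set A and at 6.63, 9.86 and 17.3 CPM across set B, or 28.1% of the mean of Ptges3. How reads shared by the 2 were assigned is not stated, which makes the level of Ptges3 uncertain by an unknown amount. In B replicate 1 the 2 rows were nearly equal (6.57 and 6.63 CPM). The other prostaglandin E synthases were Ptges, the inducible membrane form, with 0 counts in every library, and Ptges2, at 97.8, 0.113 and 23.2 CPM across set A and 36.7, 0.169 and 74.2 CPM across set B.

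Alox15, the lipoxygenase of eosinophils and resident macrophages, had counts in B replicate 2 alone, 1806 of them or 30.5 CPM, and was at 0 in the other 5 libraries. It did not pass the filter and was not tested in the filtered fit, and with no filter its adjusted p was 0.416 by edgeR over 18179 genes. The eosinophil granule genes Epx, Prg2 and Prg3 had 0 counts in all 6 libraries. Of the 9 eosinophil markers these 3 were at 0 throughout, and the list's sum of 866 to 1622 CPM in A and 450 to 1029 CPM in B came mostly from Ear2 (853 to 1621 CPM in A, 380 to 1021 CPM in B). Siglecf, a surface lectin of eosinophils, was at 66.2 CPM in B replicate 1 and at most 0.173 CPM in the others, and Il5ra, a chain of the interleukin-5 receptor, was at 0 across set A and at 3.80, 1.93 and 1.53 CPM across set B. B replicate 2, the library with Alox15, also held the highest level of Ltc4s and of Hpgds, and it was the one library in which all 9 genes had a count.

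Around the 9 enzymes, 57 further genes of the eicosanoid pathway were looked up as 58 identifiers, Dpep2 having 2. Of these, 16 had 0 counts in every library and 25 could be tested. By edgeR 0 of the 25 passed, 2 were higher in B at an unadjusted p under 0.05 (Pla2g15 and Mgll; 5.05% of all genes tested) and 0 were lower (1.32%). DESeq2 called those 2 of 25 and gave no adjusted p for Ptgds, where it called 7.16% of all genes with one. By limma-voom 0 were called, where it called 2.2% of all genes. The median log2 difference was 0.28, with 15 values above 0 and 10 below, beside a median of -0.06 and 48.0% above 0 over all genes tested. Leaving out 1 library moved the pathway median to between -0.0062 (without B replicate 3) and 0.78 (without B replicate 1). With limma-voom it was 1.17, beside a median of 0.87 over all genes tested in that fit. The sets did not overlap for 3 of the 25, each higher in B, against 10.2% of all genes tested.

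**Figure D3:**
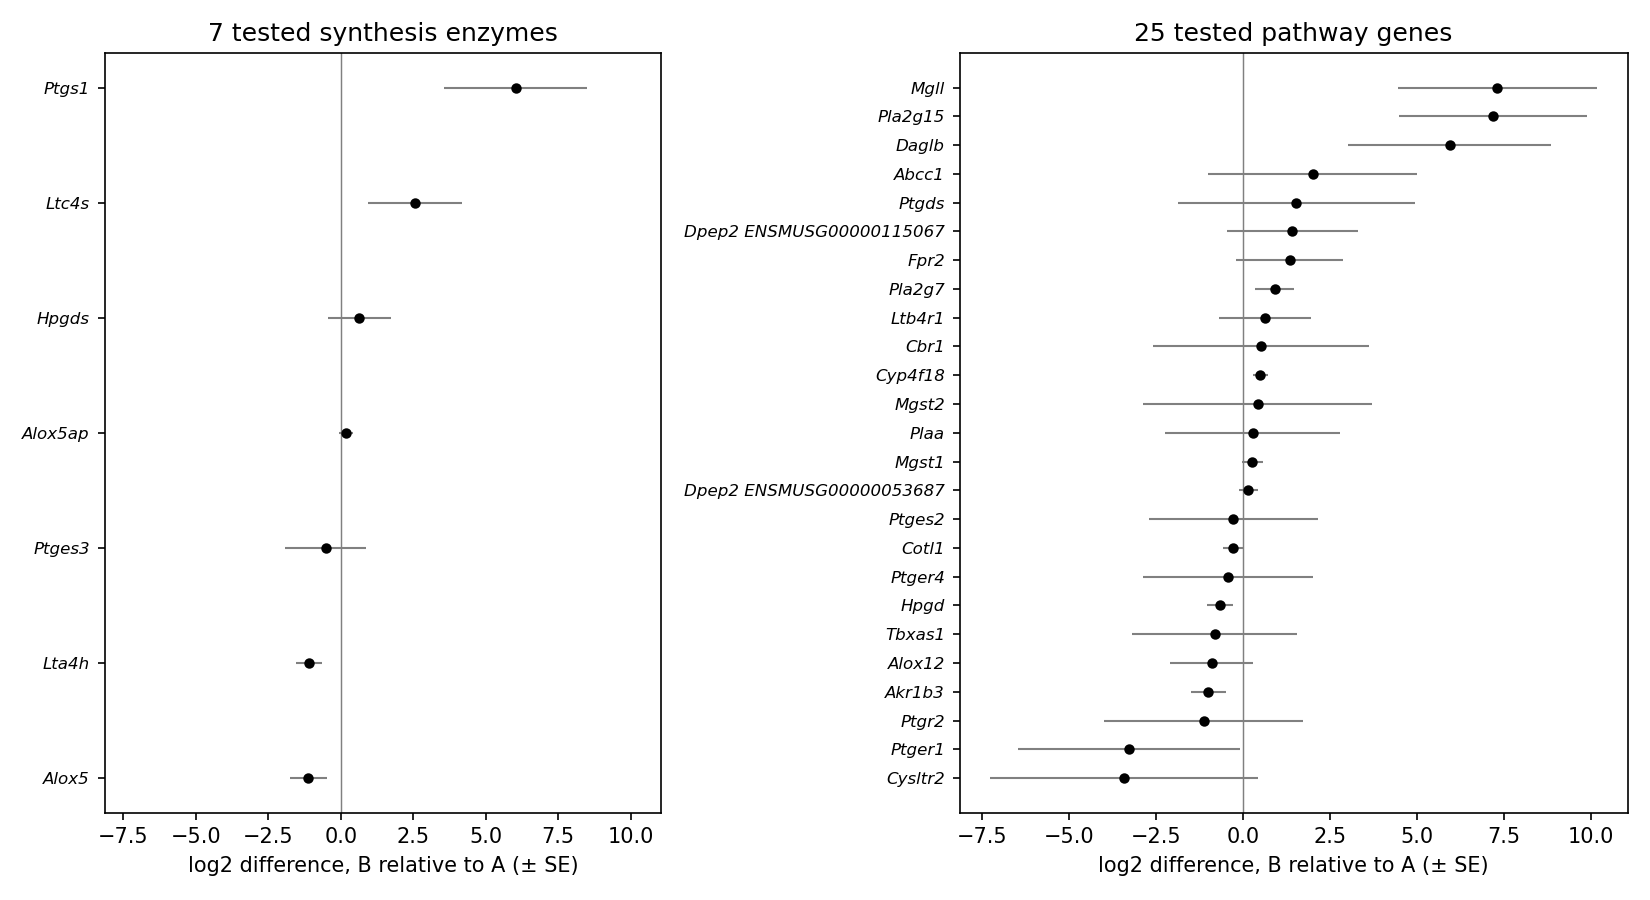
Log2 difference of B relative to A with its SE from the edgeR fit, for the 7 tested synthesis enzymes on the left and the 25 tested pathway genes on the right. Ptgs1 (6.03), Mgll (7.31), Pla2g15 (7.18) and Daglb (5.94) lie farthest to the right with wide errors, and Alox5 (-1.12) and Lta4h (-1.10) lie to the left of 0.

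Enzymes that release arachidonic acid or handle related lipids were uneven across libraries. Pla2g4a, the cytosolic phospholipase that supplies both routes, was at 0 in every A library and in B replicate 1, whereas B replicates 2 and 3 had 95.1 and 6.85 CPM. All 5 tested genes of this group had a fitted value above 0. Pla2g7, the secreted hydrolase of platelet-activating factor, was at 1058, 272 and 414 CPM across set A and 1423, 1343 and 894 CPM across set B (log2 difference 0.91 with SE 0.55, edgeR adjusted p = 1.00). Pla2g15, the lysosomal phospholipase, was at 0.181, 0 and 0.520 CPM across set A and 57.2, 23.1 and 26.6 CPM across set B, every B library above every A library (log2 difference 7.18 with SE 2.71, edgeR adjusted p = 0.650 and 0.00126 by DESeq2). Mgll, a monoacylglycerol lipase, was at 0.0363, 0.189 and 0.0433 CPM across set A and at 35.2, 0.0338 and 11.2 CPM across set B (log2 difference 7.31 with SE 2.87, edgeR adjusted p = 0.703 and 0.00285 by DESeq2), with 2 counts in B replicate 2, as many as in A replicates 1 and 3.

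Of the 10 identifiers that handle leukotrienes, 3 (Cyp4f18, Mgst1 and 1 of Dpep2) were at 1 CPM or more in every library. Mgst2, Mgst3, Ggt1 and Ggt5 were scattered, Mgst2 for instance at 0.0363, 41.3 and 0 CPM across set A and 0.0402, 52.3 and 7.54 CPM across set B. Cyp4f18, the mouse cytochrome that inactivates leukotriene B4, was at 1790, 1524 and 1452 CPM across set A and 1911, 2706 and 2673 CPM across set B. The sets did not overlap, and the log2 difference was 0.50 (SE 0.22, adjusted p = 0.835 by edgeR). Mgst1, a microsomal glutathione transferase, was at 308 ± 63.2 CPM in A and 401 ± 50.5 CPM in B, and the identifier of Dpep2 (a dipeptidase that acts on leukotriene D4) with the higher counts at 566 ± 103 and 679 ± 124 CPM (SD, n = 3 each). Among the other lipoxygenases and partners, Cotl1, a binding partner of 5-lipoxygenase, was at 424 ± 115 and 374 ± 79.9 CPM, and Alox12, the platelet lipoxygenase, at 129 ± 63.2 and 75.2 ± 93.4 CPM in A and B (SD, n = 3 each). Abcc1, an exporter of leukotriene C4, was at 0, 5.28 and 0 CPM across set A and 0.101, 11.8 and 10.6 CPM across set B.

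The prostaglandin side showed the same mixture of steady and scattered genes. Hpgd, which inactivates prostaglandins, was at 702, 453 and 452 CPM across set A and 244, 507 and 359 CPM across set B, with overlap (log2 difference -0.66 with SE 0.37, edgeR adjusted p = 1.00). Akr1b3, an aldose reductase with prostaglandin F synthase activity, was at 328 ± 171 CPM in A and 181 ± 43.5 CPM in B (SD, n = 3 each, log2 difference -0.99, SE 0.52, adjusted p = 1.00 by edgeR). Of 15 receptors, 4 had 0 counts throughout, among them Ptgdr and Ptgdr2, the receptors for prostaglandin D2, the second of which is known as CRTH2 on basophils. The receptors averaging 50 CPM or more were Ltb4r1, for leukotriene B4, at 53.8, 69.8 and 105 CPM across set A and 2.43, 150 and 219 CPM across set B, and Fpr2, a lipoxin and formyl peptide receptor, at 0.290, 61.9 and 102 CPM across set A and 197, 146 and 83.7 CPM across set B. Both overlapped between the sets. Ptger4, a prostaglandin E2 receptor coupled to cyclic AMP, was at 96.1, 0 and 25.4 CPM across set A and 65.7, 13.8 and 22.2 CPM across set B.

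**Figure D4:**
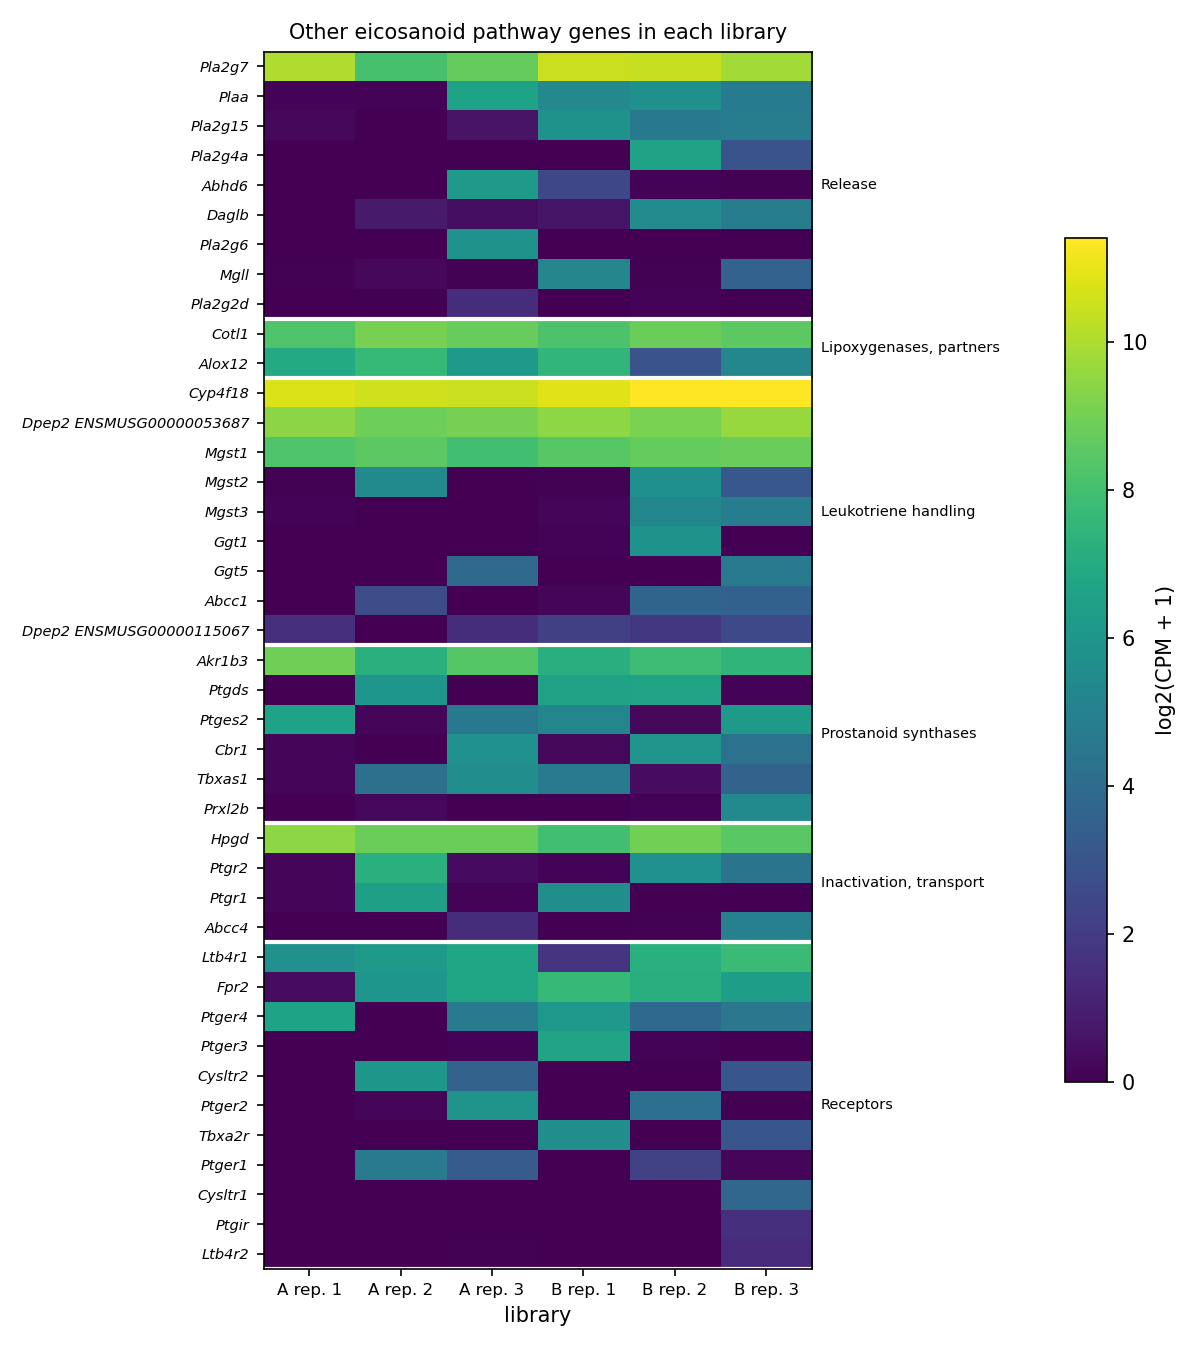
Heat map of log2(CPM + 1) of the eicosanoid pathway genes that reached 1 CPM in at least 1 library, 1 column per library and rows grouped by role. Cyp4f18, Dpep2 (under 1 of its identifiers), Mgst1, Pla2g7, Cotl1, Akr1b3 and Hpgd are bright in all 6 columns, and most other rows are bright in some columns of either set.

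To place the members among all genes, profiles of log2(CPM + 1) over the 6 libraries, each centred on its own mean, were compared with those of up to 3288 genes averaging 50 CPM or more. The smallest root-mean-square difference is given here as a description of likeness over 6 libraries. Closest to Lta4h were Pltp (0.13), Cd81 (0.15) and Glmp (0.21). Closest to Alox5 were Fcmr (0.18), Clec12a (0.18) and Pigc (0.23), and to Alox5ap Trappc3 (0.15), Sec11c (0.16) and Smpdl3a (0.16). Ptges3 was nearest to Prpf4b (0.42), Smc1a (0.48) and Dusp11 (0.48). This difference grows with how much the gene itself varies, and the cyclooxygenases, which varied most of these 6 genes, had larger values. The nearest genes were Mindy3 (1.26), Trim30b (1.38) and C1qb (1.53) for Ptgs1, and Gm10222 (1.01), Dync1i2 (1.57) and Stag2 (1.63) for Ptgs2.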

How the data were processed

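The authors deposited 1 table of raw counts per Ensembl gene, 1 column per library, neither normalized nor pooled. Cutadapt 1.9, HISAT2 2.2.1 and DESeq2 appear, without a role, in the submitters' processing notes. The sources used here do not state how reads were counted, on which genome build and annotation, or whether by strand. The sample descriptions also name 10x Genomics, while the labels' protocols name Smart-seq2, which carries no molecular identifiers. A count is therefore not a number of molecules, and the floor of 3 counts is no measure of counting error. SDs and SEs include variation between libraries. Low counts were more often 4 (5211 values) than 3 (819) or 5 (660), so the floor lies below the most common low count.

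Gene symbols were found for 55141 of 55401 identifiers. CPM is the count scaled by the column total. B was compared with A over all 6 libraries with edgeR 4.0.16 (R 4.3.3; TMM after filterByExpr on the sets, glmQLFit with robust=TRUE, glmQLFTest, Benjamini-Hochberg over 9196 genes, threshold 0.05). SE is the absolute log2 difference over the square root of F. Alternatives were scaling by RLE or by library size alone, dropping the filter, a stricter one (mean of 10 CPM, and 10 counts in each library of 1 set), DESeq2 1.42.0, limma-voom 3.58.1 with quality weights, robust=FALSE, a replicate block, counts divided by 4 and each library left out. The fits were tested on simulated counts. The members and lists were chosen with earlier results of these data known. Named pathway genes had a mean of at least 50 CPM or an unadjusted p under 0.05. Other genes, such as Pla2g4a, Ptgds, Ptges, Ptges2, Mgst2, Mgst3, Ggt1, Ggt5, Abcc1, Daglb, Ptger4, the receptors at 0 and single cell type markers, were named for their role after their values were seen. No 2 libraries of a set agreed within sampling noise.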

Additional observations from a re-analysis of the deposited data

How the results depend on the processing

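The count of genes called was unstable. Against 2 higher and 0 lower in B by edgeR, DESeq2 called 491 and 104, limma-voom 195 and 7, and leaving out 1 library gave 0 to 1 higher and 0 lower. Of the synthesis enzymes DESeq2 called 1 (Ptgs1), and of the pathway genes 2 (Pla2g15 and Mgll), where every other setting called 0 of either. The cause of these differences was not tested. Compared gene by gene with the edgeR fit reported, log2 differences shifted by a median of -0.10 with RLE scaling, 0.10 with library size alone, 0.51 with limma-voom and 0.31 with the replicate block, and the median over all genes went from -0.06 to 0.87 with limma-voom and 0.48 with the block. Those of Alox5, Lta4h and Ptges3 were below 0 in all 15 settings, and those of Ptgs1 and Ltc4s were above 0 in all 14 of theirs. All settings draw on the same 6 libraries, so a constant sign is not a separate test. With counts divided by 4 or with the stricter filter some low genes were not tested, so that Ltc4s and Ptgs1 had 14 alternatives and Hpgds 13. With 1 library left out at a time, the log2 difference of Alox5ap ran from -0.0056 (without A replicate 2) to 0.37 (without A replicate 3) and that of Hpgds from -0.21 (without B replicate 2) to 1.49 (without A replicate 3), and the direction turned at the lower end of each.

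With a replicate block edgeR called 0 genes higher in B. No pairing by replicate number was seen: deviations of same-numbered libraries correlated at 0.0112, -0.0213 and 0.0120 over 8119 genes. Not every library correlated best with its own number. With 3 libraries per set that differ beyond sampling noise, such a check cannot exclude a pairing. For genes under about 1 CPM, such as Hpgds, this depth and library type allow no statement on a difference.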

Other observations

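Several receptors and enzymes of the pathway were present in 1 library only. Cysltr1, a receptor for cysteinyl leukotrienes, had 12.6 CPM in B replicate 3 and was at 0 otherwise. Pla2g6, a calcium-independent phospholipase, was at 55.3 CPM in A replicate 3 and 0 elsewhere. Ptger3, a prostaglandin E2 receptor, was at 98.6 CPM in B replicate 1 and at most 0.0867 CPM in the others. Ggt1, which trims leukotriene C4 to leukotriene D4, was at 55.4 CPM in B replicate 2 and at most 0.0804 CPM in the others. These genes were named after their values were seen, and none passed the filter for testing.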
